A study of Mus musculus with 11 samples.

Results

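Interferon-stimulated genes were described over all libraries as a fixed list of 44 symbols, matched to the Ensembl identifiers of the deposited count table, which held 49585 entries. All 44 were found, each on its own identifier, and 42 passed the filter on low counts. The 2 that did not were Mx1 and Mx2, and the annotation lists Mx2 as a polymorphic pseudogene. Haematopoietic stem cells of C57BL/6 mice had been sorted from bone marrow as Lin- c-Kit+ Sca-1+ CD48- CD150+ cells and parted by CD41, the platelet and megakaryocyte integrin chain encoded by Itga2b. The 4 groups were CD41- cells (n = 3) and CD41+ cells (n = 2) of control mice given rabbit serum, and CD41- cells (n = 3) and CD41+ cells (n = 3) of mice 24 h after platelet depletion. Each library was made from the RNA of 1000 cells, with cells of 3 mice pooled per sample, so the spread within a group is between pools and not between animals. The labels do not name the depleting agent, and they do not say whether a CD41- and a CD41+ library came from the same pool.

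Interferons are secreted proteins that bind cell surface receptors and act through JAK kinases. Type I interferon brings STAT2 and IRF9 into a complex that binds the interferon-stimulated response element, whereas interferon gamma acts through the gamma-activated site. Many of the genes so induced sense or degrade foreign nucleic acid, or block steps of viral and bacterial growth. Stem cells of the marrow are known to keep some of these genes on without infection, and acute interferon exposure is known to drive quiescent stem cells into cycle.

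CD41+ cells held fewer transcripts of several of these genes than CD41- cells, and depleted mice fewer of some of them than control mice. Averaged over control and depleted mice, 6 of 42 members (14.3%) fell in CD41+ cells and 0 rose, where 2.65% of all genes tested fell. Throughout, fell and rose mean an adjusted p under 0.05 in the quasi-likelihood test of edgeR, with Benjamini-Hochberg adjustment over 13448 genes. They were Irf1, Irf9, Stat2, Ddx58, Gbp7 and Ifi44, and their decreases ran from 1.50-fold to 2.16-fold. Averaged over both CD41 fractions, 3 of 42 members (7.14%) fell after depletion (Ifi44, Irf9 and Irf1), where 2.73% of all genes fell. Gbp7 was the 1 member (2.38%) that rose, where 3.6% of all genes rose, so an increase was no more frequent here than among all genes. Ifi44 had the largest of these changes, a 2.40-fold decrease. Since these are bulk libraries, fewer cells that express a gene and less RNA of it per cell cannot be told apart. The list was chosen with earlier results of these data known, so its shares beside all genes are a description and no independent test.

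The sequences before the start sites show what the members share and where they differ. Promoter windows from the RefSeq annotation of GRCm38.p6, 250 bases before to 50 bases after each start, were matched by symbol for 33 of the 44 members. They were searched on both strands for the core of the response element, GAAANNGAA, and for the gamma-activated site, TTCNNNGAA, which reads alike on both strands. The core was found in 20 of 33 members (60.6%) and in 9.76% of all genes of the table, and the gamma-activated letters in 10 of 33 (30.3%) and in 9.55% of all genes. Of the 33, 6 held both, 14 the core alone, 4 the gamma-activated letters alone and 9 neither. In Bst2 the gamma-activated match and 1 core match overlap. A match is a run of letters and no proof of binding, and the absence of one says only that these letters are not in the window.

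The 7 stretches printed here were chosen among members with a match, with each motif match in capitals. Each stretch runs 5′ to 3′ on the gene's own strand and covers 135 bases, from 120 before to 15 after the RefSeq start. Irf9 and Stat2 were called too and are not printed. Irf9 held neither motif in any of its windows, and Stat2 had 1 core match, 221 bases before the start. Irf1 (chr11:53769894-53770028, plus strand) is shown because it was lower in both comparisons and held the gamma-activated letters, 90 bases before the start, with no core match. Ddx58 (chr4:40239811-40239945, minus strand) and Ifi44 (chr3:151749896-151750030, minus strand), which were called as well, each had a single core match, which spans the start in Ifi44 and lies just after it in Ddx58.
Irf1: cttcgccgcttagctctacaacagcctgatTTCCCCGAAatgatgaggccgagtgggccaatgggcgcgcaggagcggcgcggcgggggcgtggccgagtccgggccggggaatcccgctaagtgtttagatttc
Ddx58: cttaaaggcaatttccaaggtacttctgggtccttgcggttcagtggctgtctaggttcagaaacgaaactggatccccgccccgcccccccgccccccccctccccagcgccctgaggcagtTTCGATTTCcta
Ifi44: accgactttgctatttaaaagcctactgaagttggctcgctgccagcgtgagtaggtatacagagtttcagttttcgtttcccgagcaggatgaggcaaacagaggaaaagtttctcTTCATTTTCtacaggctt
Gbp7 (chr3:142530216-142530350, plus strand) is set beside its neighbours Gbp3 (chr3:142559924-142560058, plus strand) and Gbp2 (chr3:142620543-142620677, plus strand), because it rose after depletion and neither of them passed a test. Of the 3, Gbp7 was the one with gamma-activated letters, in 2 places, beside 1 core match.
Gbp7: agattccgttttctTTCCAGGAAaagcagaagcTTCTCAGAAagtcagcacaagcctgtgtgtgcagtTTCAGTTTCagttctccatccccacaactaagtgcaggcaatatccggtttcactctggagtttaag
Gbp3: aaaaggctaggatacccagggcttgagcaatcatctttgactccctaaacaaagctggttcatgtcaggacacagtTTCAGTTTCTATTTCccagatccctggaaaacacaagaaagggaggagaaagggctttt
Gbp2: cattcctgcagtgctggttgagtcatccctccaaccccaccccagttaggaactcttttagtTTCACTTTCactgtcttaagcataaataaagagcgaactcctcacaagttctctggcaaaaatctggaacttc
Isg15 (chr4:156200804-156200938, minus strand) is shown because its 3 overlapping core matches stand before a gene with few counts here.
Isg15: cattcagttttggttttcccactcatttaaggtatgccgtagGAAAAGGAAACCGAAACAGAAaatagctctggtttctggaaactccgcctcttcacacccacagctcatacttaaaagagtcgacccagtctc

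In GENCODE M21 on GRCm38, Irf1 spans chr11:53770014-53778374, Irf9 chr14:55603571-55610030 and Stat2 chr10:128270559-128292849, all on the plus strand. Ddx58 spans chr4:40203773-40239828 and Ifi44 chr3:151730922-151749960, both on the minus strand. Gbp7 spans chr3:142530342-142550149 on the plus strand, in a cluster with Gbp3 and Gbp2.

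**Figure D1:**
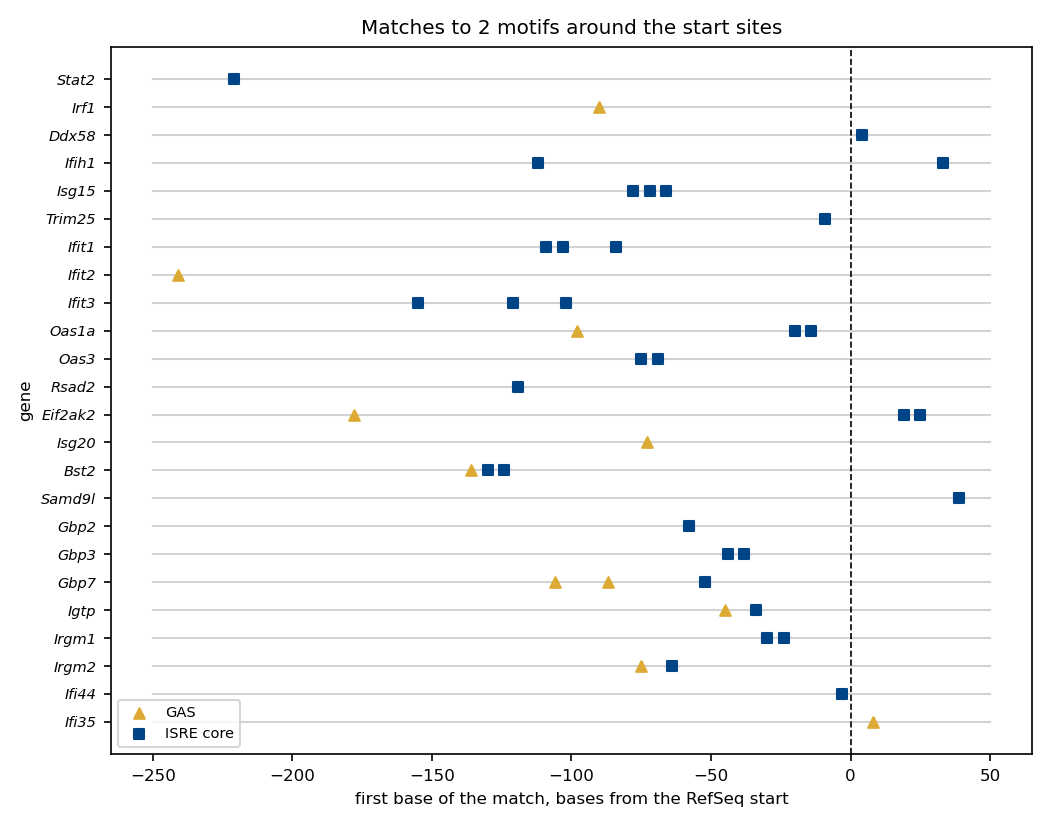
Positions of both motifs around the RefSeq start (dashed line) of the 24 members with a match, as the first base of each match in bases from the start. Squares are matches to the response element core and triangles are matches to the gamma-activated site; 20 genes carry squares, 10 carry triangles, and Isg15, Ifit1 and Ifit3 carry 3 squares each.

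Depth ran from 0.974 M counts (depleted CD41+ replicate 1) to 9.95 M (depleted CD41- replicate 1), and the median was 3.88 M. Values are given as CPM, counts scaled to a common library size after TMM. The floor, set at 3 counts, lay between 0.301 and 3.08 CPM, and floors cover counting error only because the reads carry no molecular identifiers. Itga2b stood at 170 to 425 CPM in the 5 CD41+ libraries and at 37.5 to 98.5 CPM in the 6 CD41- libraries, without overlap. The 10 stem cell gate genes had counts in every library, including Cd48, whose protein the sort excludes, at 12.9 to 106 CPM. Neutrophil genes were present throughout, and the sum over a list of 12 ran from 4137 to 83410 CPM. With few libraries a group, p values reflect the spread between these pools.

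Single libraries carried much of the variation of the list. For each of the 42 members, the log2 CPM of a library was set against the gene's own mean over the 11 libraries. The median of these deviations was 0.16, 0.63 and 0.21 in control CD41- cells, -0.22 and 0.30 in control CD41+ cells, -0.08, -0.04 and 0.66 in depleted CD41- cells, and -0.87, -0.55 and -0.00126 in depleted CD41+ cells. No 2 of the 4 groups were apart on this measure without overlap, except control CD41- and depleted CD41+ cells. In depleted CD41- replicate 3, 42 of 42 members were above their own mean, and 16 had their highest value there. Control CD41- replicate 2 held the highest value of 15 members. At the other end, depleted CD41+ replicate 1 held the lowest value of 23 members and depleted CD41+ replicate 2 that of 11. The first of these was also the library with the fewest counts, and the part of depth in its low values was not tested. The median over all genes tested stayed between -0.05 and 0.05 in every library.

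**Figure D2:**
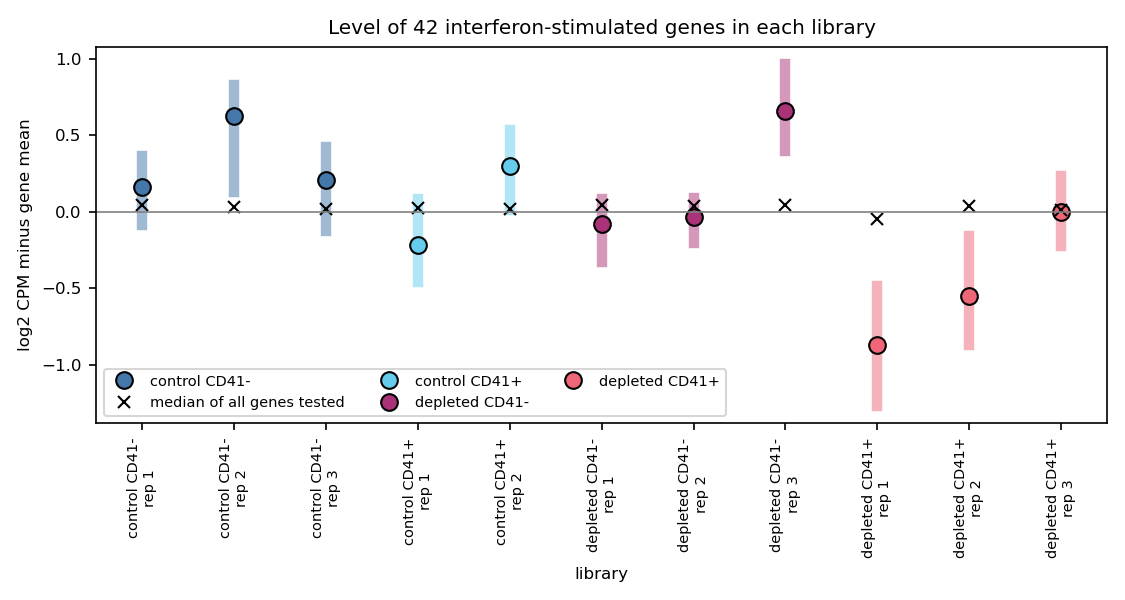
Level of the 42 members in each of the 11 libraries, as log2 CPM minus the gene's mean over libraries. Circles are medians over members, bars run from the lower to the upper quartile, and crosses are medians over all genes tested; depleted CD41- replicate 3 stands highest at 0.66 and depleted CD41+ replicate 1 lowest at -0.87.

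**Figure D3:**
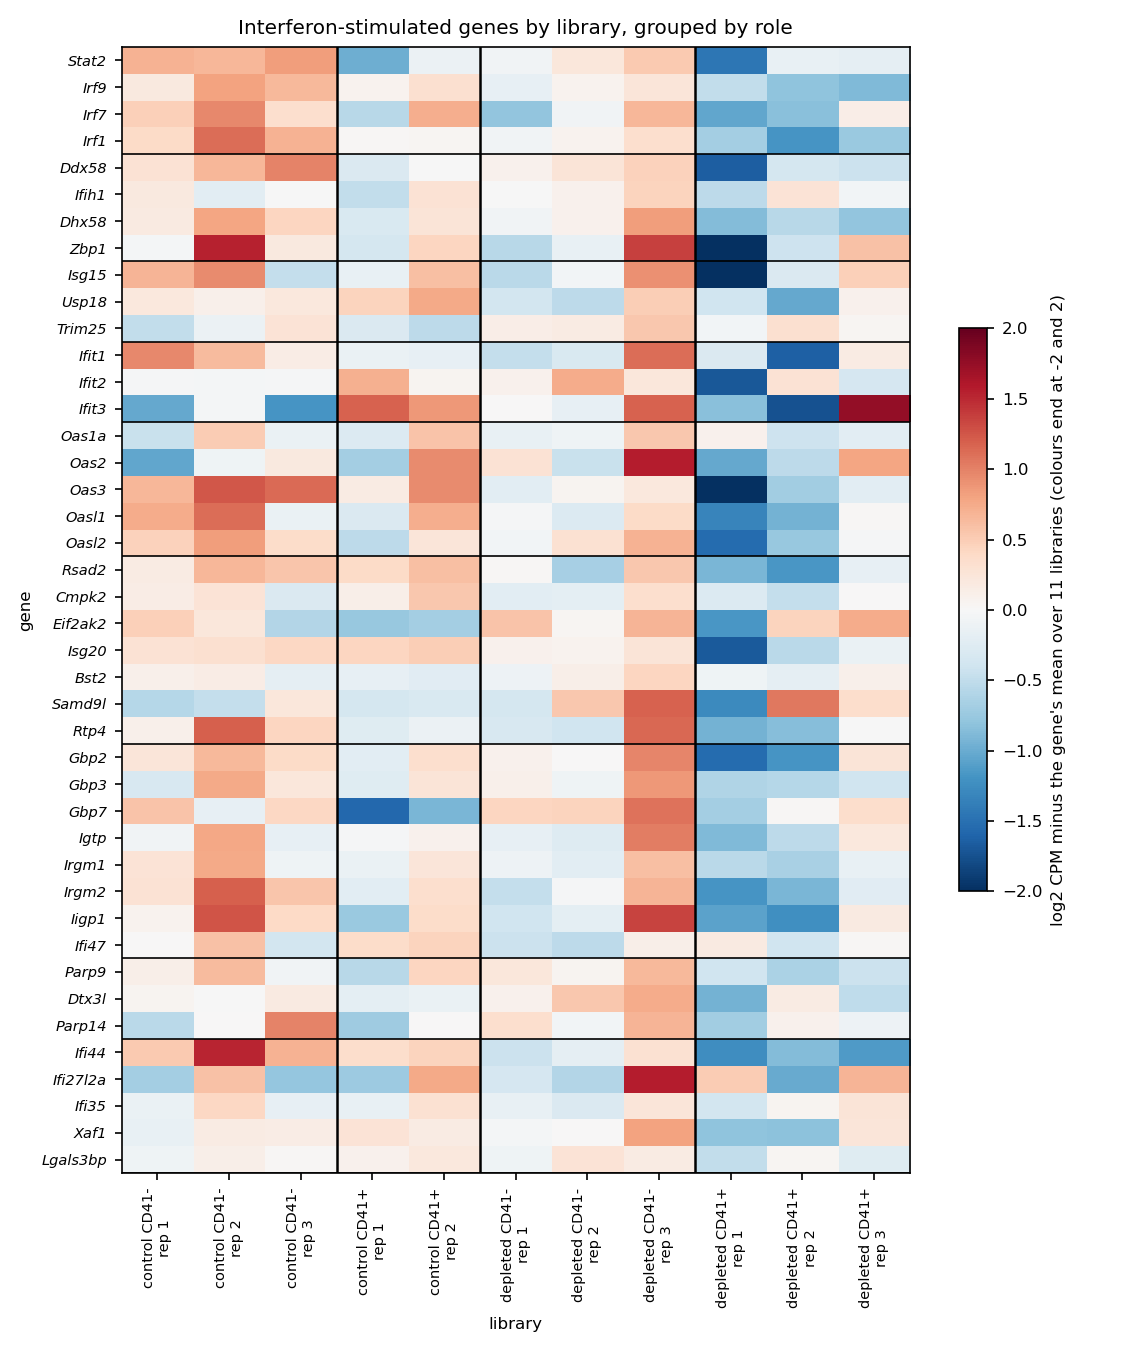
Log2 CPM of each of 42 members in each library minus the gene's mean over 11 libraries, in role order from signalling factors (top) to other induced genes (bottom), with red above and blue below the mean and colours ending at -2 and 2. Vertical lines part the 4 groups and horizontal lines the roles; the column of depleted CD41- replicate 3 is red throughout, and that of depleted CD41+ replicate 1 is mostly blue.

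Set per kilobase of merged exons, mean levels over the 4 groups were highest for Lgals3bp (202 CPM per kb), Ifi47 (131), Bst2 (99.0), Igtp (79.8), Rtp4 (54.6) and Gbp2 (50.1). They were lowest for Mx2 (0.0985 CPM per kb), Mx1 (0.151) and Oas2 (1.36). Isg15, among the genes most often used to report interferon exposure, was at only 2.45 CPM per kb, on 86 counts over all libraries. Ifit3 and Oasl1, which are induced strongly in many cells, were also low at 6.62 and 5.12 CPM per kb.

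Among the 4 signalling factors, 3 fell in CD41+ cells on average and 2 fell after depletion. Irf1, a factor induced above all by interferon gamma, stood at 122, 203 and 151 CPM in control CD41- cells and at 94.8 and 96.2 CPM in CD41+ cells of control mice. After depletion it stood at 88.7, 97.6 and 118 CPM in CD41- cells and at 57.8, 41.0 and 55.4 CPM in CD41+ cells. Within each treatment the CD41+ libraries were all below the CD41- libraries, and within each fraction the depleted libraries were all below the controls. The averaged log2 difference was -0.86 ± 0.16 (SE) between fractions, 1.82-fold lower in CD41+ cells, with an edgeR adjusted p = 0.00848. It was -0.78 ± 0.16 after depletion, 1.72-fold lower, with an edgeR adjusted p = 0.0109, and 0.0529 without control CD41+ replicate 1. The fraction difference passed the test in 11 of 11 fits that left out 1 library.

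Irf9, the DNA-binding partner of STAT2, stood at 179, 271 and 244 CPM in control CD41- cells and at 163 and 194 CPM in CD41+ cells of control mice. After depletion it stood at 139, 163 and 185 CPM in CD41- cells and at 111, 89.4 and 84.2 CPM in CD41+ cells. Depleted CD41+ cells were below all other libraries, while control CD41+ cells overlapped both CD41- groups. After depletion Irf9 was lower by -0.72 ± 0.14 (1.65-fold, edgeR adjusted p = 0.00919), a call kept in 11 of 11 fits that left out 1 library. Its fraction difference of -0.58 ± 0.14 (1.50-fold, edgeR adjusted p = 0.0301) was kept in 3 of 11, those that left out replicate 1 of any group but control CD41+, and the adjusted p reached 0.124 without control CD41+ replicate 1. The gene models of Irf9 and Rnf31 overlap on the same strand, so reads could be shared between them.

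Stat2 stood at 41.0, 40.1 and 45.2 CPM in control CD41- cells and at 12.6 and 23.2 CPM in CD41+ cells of control mice. Depleted mice had it at 23.9, 29.3 and 36.2 CPM in CD41- cells and at 8.90, 22.5 and 22.1 CPM in CD41+ cells. The CD41+ libraries were below the CD41- libraries in both treatments. Averaged, the difference was -0.94 ± 0.25 (1.92-fold, edgeR adjusted p = 0.0457), and the call was kept in 1 of 11 fits that left out 1 library, that without depleted CD41+ replicate 2 (0.048). The adjusted p was 0.168 without control CD41+ replicate 1. Depletion gave -0.21 ± 0.25 for Stat2 (edgeR adjusted p = 0.68). Irf7, which amplifies type I interferon production, ran from 18.9 to 76.4 CPM and passed no test, with -0.45 ± 0.32 between fractions and -0.62 ± 0.31 after depletion.

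Of the 4 cytosolic sensors, Ddx58 fell in CD41+ cells and none passed the test after depletion. Ddx58 encodes RIG-I, a sensor of viral RNA ends, and stood at 82.0, 107 and 134 CPM in control CD41- cells and at 54.8 and 67.1 CPM in CD41+ cells of control mice. In depleted mice it stood at 71.2, 80.2 and 92.9 CPM in CD41- cells and at 21.1, 52.7 and 49.8 CPM in CD41+ cells. All 5 CD41+ values were below all 6 CD41- values. The averaged difference was -0.87 ± 0.21 (1.82-fold, edgeR adjusted p = 0.0278), and the call was kept in 6 of 11 fits that left out 1 library. The adjusted p was 0.112 and 0.075 when control CD41+ replicate 1 or 2 was left out, 0.061 when control CD41- replicate 3 was, and 0.0583 and 0.0622 when depleted CD41- replicate 2 or 3 was. Its largest single departure was the value of 21.1 CPM, on 19 counts, in depleted CD41+ replicate 1, and without that library the difference was -0.73 (edgeR adjusted p = 0.0238).

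Ifih1, which encodes MDA5, a sensor of long double-stranded RNA, did not pass the test that Ddx58 passed. It stood at 95.2, 71.7 and 82.7 CPM in control CD41- cells, 58.8 and 101 CPM in CD41+ cells of control mice, 82.6, 88.2 and 113 CPM in depleted CD41- cells, and 57.8, 100.3 and 79.5 CPM in depleted CD41+ cells. All 4 groups overlapped, and the averaged fraction difference was -0.14 ± 0.18 (edgeR adjusted p = 0.689). Dhx58, which encodes LGP2, a regulator of both sensors, lay near the threshold between fractions at -0.78 ± 0.21 (edgeR adjusted p = 0.0503). Zbp1, a sensor of Z-form nucleic acid, had one of the widest spreads, with 9.08, 28.01 and 10.7 CPM in control CD41- cells and 7.21 and 12.6 CPM in CD41+ cells of control mice. After depletion it stood at 6.21, 8.38 and 24.8 CPM in CD41- cells and at 1.11, 6.86 and 14.3 CPM in CD41+ cells. Its 2 highest values came from the 2 CD41- libraries in which the whole list was high, and the groups overlapped.

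The ISG15 system had no member that passed a test. Isg15, a ubiquitin-like modifier, stood at 2.75, 3.40 and 0.973 CPM in control CD41- cells, 1.34 and 2.58 CPM in CD41+ cells of control mice, 0.917, 1.47 and 3.31 CPM in depleted CD41- cells, and 0, 1.18 and 2.33 CPM in depleted CD41+ cells. These levels rest on 14 counts or fewer in every library, and counts this few leave little room to detect a difference. Usp18, which removes ISG15 from proteins and dampens the type I receptor, stood at 42.9, 39.8 and 43.1 CPM in control CD41- cells and at 50.5 and 63.2 CPM in CD41+ cells of control mice. In depleted mice Usp18 stood at 28.5, 25.6 and 52.3 CPM in CD41- cells and at 27.8, 18.0 and 39.3 CPM in CD41+ cells. In the CD41+ fraction the depleted libraries were all below the controls, with -1.01 ± 0.36 (edgeR adjusted p = 0.286). Trim25, a ubiquitin ligase that acts on RIG-I, ran from 20.6 to 43.8 CPM.

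The IFIT family, which binds viral RNA, had no call. Ifit2 stood at 75.6, 74.6 and 75.4 CPM in control CD41- cells, 125 and 79.2 CPM in CD41+ cells of control mice, 81.8, 128 and 90.1 CPM in depleted CD41- cells, and 23.4, 93.5 and 60.9 CPM in depleted CD41+ cells. The control CD41- libraries were almost alike, and the depleted CD41+ libraries spread widest. Ifit3 stood at 3.85, 8.11 and 3.41 CPM in control CD41- cells, 19.5 and 15.5 CPM in CD41+ cells of control mice, 8.35, 7.33 and 19.4 CPM in depleted CD41- cells, and 4.45, 2.16 and 29.1 CPM in depleted CD41+ cells. Its lowest and its highest value were both from depleted CD41+ cells. Ifit3 was the member with the largest positive fraction difference in control mice, 1.77 ± 0.82 (edgeR adjusted p = 0.266), where the 2 CD41+ libraries were above the 3 CD41- libraries. Ifit1 had a fraction difference of -0.75 ± 0.36 (edgeR adjusted p = 0.229).

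Oligoadenylate synthetases make the messenger that activates RNase L, and 0 of the 5 OAS family members passed a test. Oas3 stood at 127, 191 and 176 CPM in control CD41- cells and at 89.8 and 155 CPM in CD41+ cells of control mice. Depleted mice had it at 69.5, 83.4 and 92.5 CPM in CD41- cells and at 7.79, 49.4 and 69.3 CPM in CD41+ cells. Within each fraction the depleted libraries were all below the controls. The depletion difference was -1.22 ± 0.34 with an edgeR adjusted p = 0.0574, which missed the threshold. It was -1.03 (edgeR adjusted p = 0.00702) without depleted CD41+ replicate 1, the library at 7.79 CPM on 7 counts. The adjusted p was 0.0371 without depleted CD41+ replicate 3 and reached 0.192 without control CD41+ replicate 2.

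Oasl2, a synthetase-like member of the family, stood at 184, 239 and 172 CPM in control CD41- cells, 92.2 and 158 CPM in CD41+ cells of control mice, 128, 164 and 217 CPM in depleted CD41- cells, and 45.6, 78.4 and 131 CPM in depleted CD41+ cells. Fractions were parted without overlap in control mice and overlapped in depleted mice, with an averaged -0.81 ± 0.24 (edgeR adjusted p = 0.0686, and 0.023 without depleted CD41+ replicate 3). Oas2 was scarce and uneven. It stood at 2.20, 4.71 and 5.84 CPM in control CD41- cells, 2.94 and 10.1 CPM in CD41+ cells of control mice, 6.21, 3.56 and 15.8 CPM in depleted CD41- cells, and 2.23, 3.33 and 9.03 CPM in depleted CD41+ cells. The groups overlapped throughout, and the highest value was again in depleted CD41- replicate 3.

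Of the 9 Mx GTPases and other antiviral effectors, 7 passed the filter and 0 passed a test. Mx1 had counts in 4 libraries and Mx2 in 5, with at most 2.36 and 1.57 CPM, both in control CD41- replicate 2. Rtp4, an interferon-induced chaperone with antiviral action, stood at 114, 242 and 142 CPM in control CD41- cells, 89.0 and 97.5 CPM in CD41+ cells of control mice, 84.9, 80.4 and 236 CPM in depleted CD41- cells, and 54.5, 58.2 and 106 CPM in depleted CD41+ cells. Its 2 highest values were the same 2 CD41- libraries as for Zbp1, and its fraction difference was -0.84 ± 0.34 (edgeR adjusted p = 0.169). Rsad2, which encodes viperin, lay near the threshold after depletion at -0.81 ± 0.24 (edgeR adjusted p = 0.0635, and 0.0404 without depleted CD41+ replicate 3). Eif2ak2, the kinase PKR that halts translation, and Samd9l had positive depletion values of 0.70 ± 0.31 and 0.78 ± 0.36, with edgeR adjusted p = 0.216 and 0.231. Bst2, which encodes tetherin, varied least in this role, from 76.9 to 121 CPM.

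Guanylate-binding and immunity-related GTPases act on the vacuoles of intracellular pathogens, and of the 8 members here 1 passed a test. Gbp7 stood at 207, 125 and 186 CPM in control CD41- cells and at 46.8 and 73.8 CPM in CD41+ cells of control mice. In depleted mice it stood at 187, 189 and 298 CPM in CD41- cells and at 86.8, 142 and 179 CPM in CD41+ cells. The fractions did not overlap within either treatment, and depleted CD41+ libraries were all above control CD41+ libraries. In control mice the fraction difference was -1.51 ± 0.33 (edgeR adjusted p = 0.0308), the only member called there, where 1.04% of all genes fell. That call was lost when control CD41- replicate 1 (adjusted p = 0.0798) or 3 (0.0876), or control CD41+ replicate 1 (0.193) or 2 (0.0912), was left out.

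Averaged over treatments, Gbp7 was 2.16-fold lower in CD41+ cells (-1.11 ± 0.22, edgeR adjusted p = 0.0118, and 0.0631 without control CD41+ replicate 1). After depletion it rose by 0.79 ± 0.22, 1.73-fold, with an edgeR adjusted p = 0.0458. That increase was kept in 2 of 11 fits that left out 1 library, when control CD41- replicate 1 or depleted CD41+ replicate 1 was the one left out, with an adjusted p of 0.193 without control CD41+ replicate 1, and at 0.0545 in the fit without robust estimation. Its neighbours on chromosome 3 had depletion values of -0.24 ± 0.22 (Gbp3) and -0.33 ± 0.31 (Gbp2), and fraction differences of -0.57 ± 0.22 and -0.67 ± 0.31, none called. The guanylate-binding genes are near copies of each other and a further gene model, Gm43802, overlaps Gbp7 on its strand, so the counting could have split reads between them.

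Ifi47, the GTPase with the highest level per kilobase, had the 1 positive averaged fraction difference of its role. It stood at 307, 461 and 236 CPM in control CD41- cells, 394 and 418 CPM in CD41+ cells of control mice, 226, 213 and 330 CPM in depleted CD41- cells, and 347, 233 and 310 CPM in depleted CD41+ cells. Fractions overlapped within each treatment, and control CD41+ libraries were above depleted CD41+ libraries. The fraction difference was 0.24 ± 0.18 (edgeR adjusted p = 0.447). The other 7 members of the role had negative averaged fraction differences, from -1.11 (Gbp7) to -0.42 (Igtp). Igtp and Irgm2 share sequence on the same strand in the annotation and are uncertain for that reason.

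The complex of PARP9 and the ubiquitin ligase DTX3L, which takes part in the repair of DNA and in interferon signalling, and PARP14 had no calls. Parp9 stood at 116, 164 and 100.4 CPM in control CD41- cells, 72.1 and 143 CPM in CD41+ cells of control mice, 124, 109.7 and 167 CPM in depleted CD41- cells, and 80.1, 68.4 and 78.4 CPM in depleted CD41+ cells. In depleted mice the fractions did not overlap, at -0.82 ± 0.26 (edgeR adjusted p = 0.285). Dtx3l had -0.80 ± 0.24 in the same comparison (edgeR adjusted p = 0.261). Both genes start from opposite strands at overlapping positions, and without a stated strand setting their reads cannot be fully told apart.

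Of the 5 other induced genes, Ifi44 changed in both averaged comparisons. Ifi44, an interferon-induced protein, stood at 157, 314 and 176 CPM in control CD41- cells and at 139.5 and 149 CPM in CD41+ cells of control mice. After depletion it stood at 80.8, 96.3 and 134 CPM in CD41- cells and at 45.6, 59.2 and 49.5 CPM in CD41+ cells. Every depleted library was below every control library, and within each treatment the CD41+ libraries were below the CD41- libraries. After depletion Ifi44 was lower by -1.26 ± 0.19, 2.40-fold (edgeR adjusted p = 0.00214), a call kept in 11 of 11 fits that left out 1 library, with adjusted p from 0.00261 to 0.0152.

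Ifi44 was also the only member called after depletion in CD41- cells alone, at -1.06 ± 0.25 (edgeR adjusted p = 0.0363), where 0.892% of all genes fell. That call was kept in 5 of 11 fits that left out 1 library, and at 0.0584 it missed the threshold in a fit of the CD41- libraries alone. The adjusted p was 0.166 and 0.118 when depleted CD41- replicate 1 or 2 was left out, 0.127 when control CD41- replicate 2 was, 0.0585 and 0.051 when control CD41+ replicate 1 or 2 was, and 0.0543 when depleted CD41+ replicate 3 was. In CD41+ cells alone Ifi44 had -1.47 ± 0.29, with an edgeR adjusted p = 0.0835, and 0.0346 without control CD41- replicate 2. Its fraction difference of -0.79 ± 0.19 (1.73-fold, edgeR adjusted p = 0.0316) was kept in 5 of 11. Its adjusted p was 0.109 and 0.0985 when control CD41+ replicate 1 or 2 was left out, 0.0605 and 0.065 when depleted CD41+ replicate 1 or 3 was, and 0.058 and 0.072 when depleted CD41- replicate 2 or 3 was. Lgals3bp, a secreted galectin-binding glycoprotein, had the highest level of the list per kilobase and a narrow range. It stood at 531, 616 and 573 CPM in control CD41- cells, 603 and 652 CPM in CD41+ cells of control mice, 534, 681 and 635 CPM in depleted CD41- cells, and 402, 579 and 480.4 CPM in depleted CD41+ cells. Depleted CD41+ libraries were below control CD41+ libraries, the other pairs of groups overlapped, and neither averaged comparison called it.

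**Figure D4:**
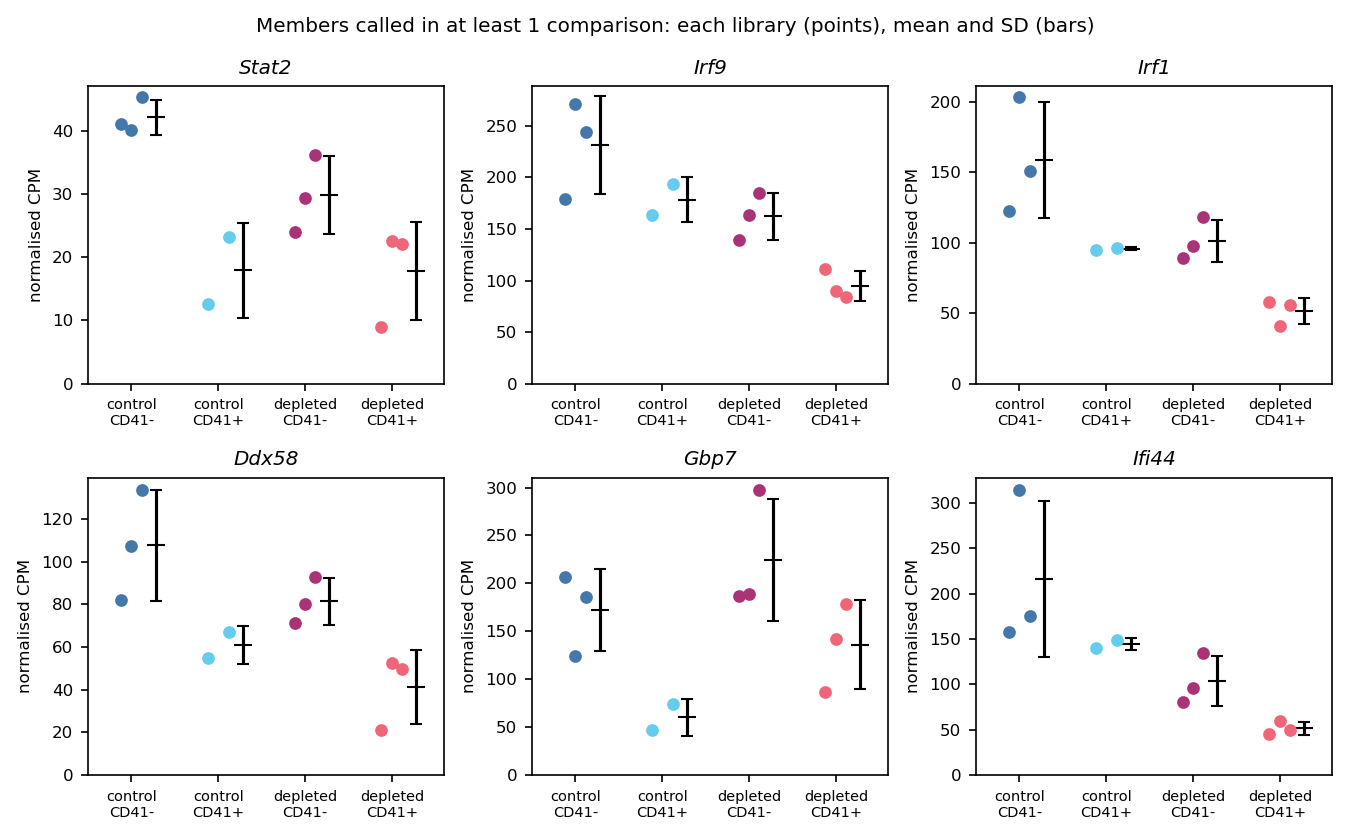
TMM-normalised CPM of the 6 members called in at least 1 comparison, with 1 point per library and the group mean ± SD as black bars (n = 3, 2, 3 and 3 from left to right). Irf1 and Ifi44 are lowest in depleted CD41+ cells, with means of 51.4 and 51.4 CPM, whereas Gbp7 is lowest in control CD41+ cells, with a mean of 60.3 CPM.

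Over the whole list, the averaged fraction difference was negative for 37 of 42 members, with a median of -0.48 against -0.03 over all genes tested, of which 52.7% were negative. At an unadjusted edgeR p under 0.05 there were 14 of 42 members and 3103 of 13448 genes. DESeq2 called 9 of 44 members lower and limma voom 4 of 42. Here and below, the share of all genes called by DESeq2, by voom or without 1 library is not given. Counts from those fits therefore do not set the members apart from other genes. The edgeR calls came to 1 when control CD41+ replicate 1 was left out. They came to 2 when control CD41+ replicate 2 or depleted CD41- replicate 2 or 3 was left out, and to 3 when this was control CD41- replicate 3. The list's median moved to -0.28 when depleted CD41- replicate 3 was dropped and to -0.63 when control CD41+ replicate 2 was. In control mice 29 of 42 members were negative, where 51.9% of all genes were. Their median of -0.28 moved to -0.07 and -0.57 when control CD41+ replicate 1 or 2 was left out.

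In depleted mice 39 of 42 members had negative fraction differences, with a median of -0.66 against -0.03 over all genes, of which 52.5% were negative. The edgeR test called 0 of the 42 members, where it called 0.193% of all genes in either direction. At an unadjusted edgeR p under 0.05 there were 15 of 42 members and 1234 of 13448 genes. DESeq2 called 2 of 44 members lower and voom 0. Dropping depleted CD41- replicate 3 moved the median to -0.29, and dropping depleted CD41+ replicate 3 moved it to -0.95. Irf1 came nearest to the threshold, at -0.998 ± 0.216 with an edgeR adjusted p = 0.0934.

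The depletion difference averaged over fractions was negative for 31 of 42 members, with a median of -0.30 against -0.01 over all genes, of which 50.8% were negative. An unadjusted edgeR p under 0.05 was reached by 15 of 42 members and 2863 of 13448 genes. The edgeR test called 5 members lower without depleted CD41+ replicate 3, and DESeq2 called 6 of 44. The median was -0.15 when replicate 2 of either control group was left out and -0.45 when depleted CD41- replicate 3 was. In CD41- cells 24 of 42 members (57.1%) were negative, near the 52.2% of all genes. The members' median there was -0.14, against -0.03 over all genes. It turned positive, at 0.07, when control CD41- replicate 2 was left out, and at 0.04 and 0.01 when depleted CD41- replicate 1 or 2 was. In CD41+ cells 34 of 42 members were negative, where 50.4% of all genes were, and the members' median was -0.49. There edgeR called 0 members, where it called 0.104% of all genes in either direction. An unadjusted edgeR p under 0.05 was reached there by 11 of 42 members and 1646 of 13448 genes. DESeq2 called 1 of 44 members higher and 3 lower, and voom 0. That median moved to -0.28 when control CD41+ replicate 2 was left out and to -0.71 when depleted CD41+ replicate 3 was. The 4 single comparisons and their averages share libraries and are not independent of each other.

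Whether the depletion response differed between fractions was tested directly. No member passed, as no gene did (0.0% of 13448), and DESeq2 and voom also called 0 members. At an unadjusted p under 0.05 there was 1 member, Ifit2, at -1.13 ± 0.51 (edgeR adjusted p = 0.793), where 825 of 13448 genes had such a p. The median over members was -0.29, and -0.03 without control CD41+ replicate 2. For the members as for other genes, the size of the response in CD41- and CD41+ cells was therefore not shown to differ, nor shown to be alike.

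**Figure D5:**
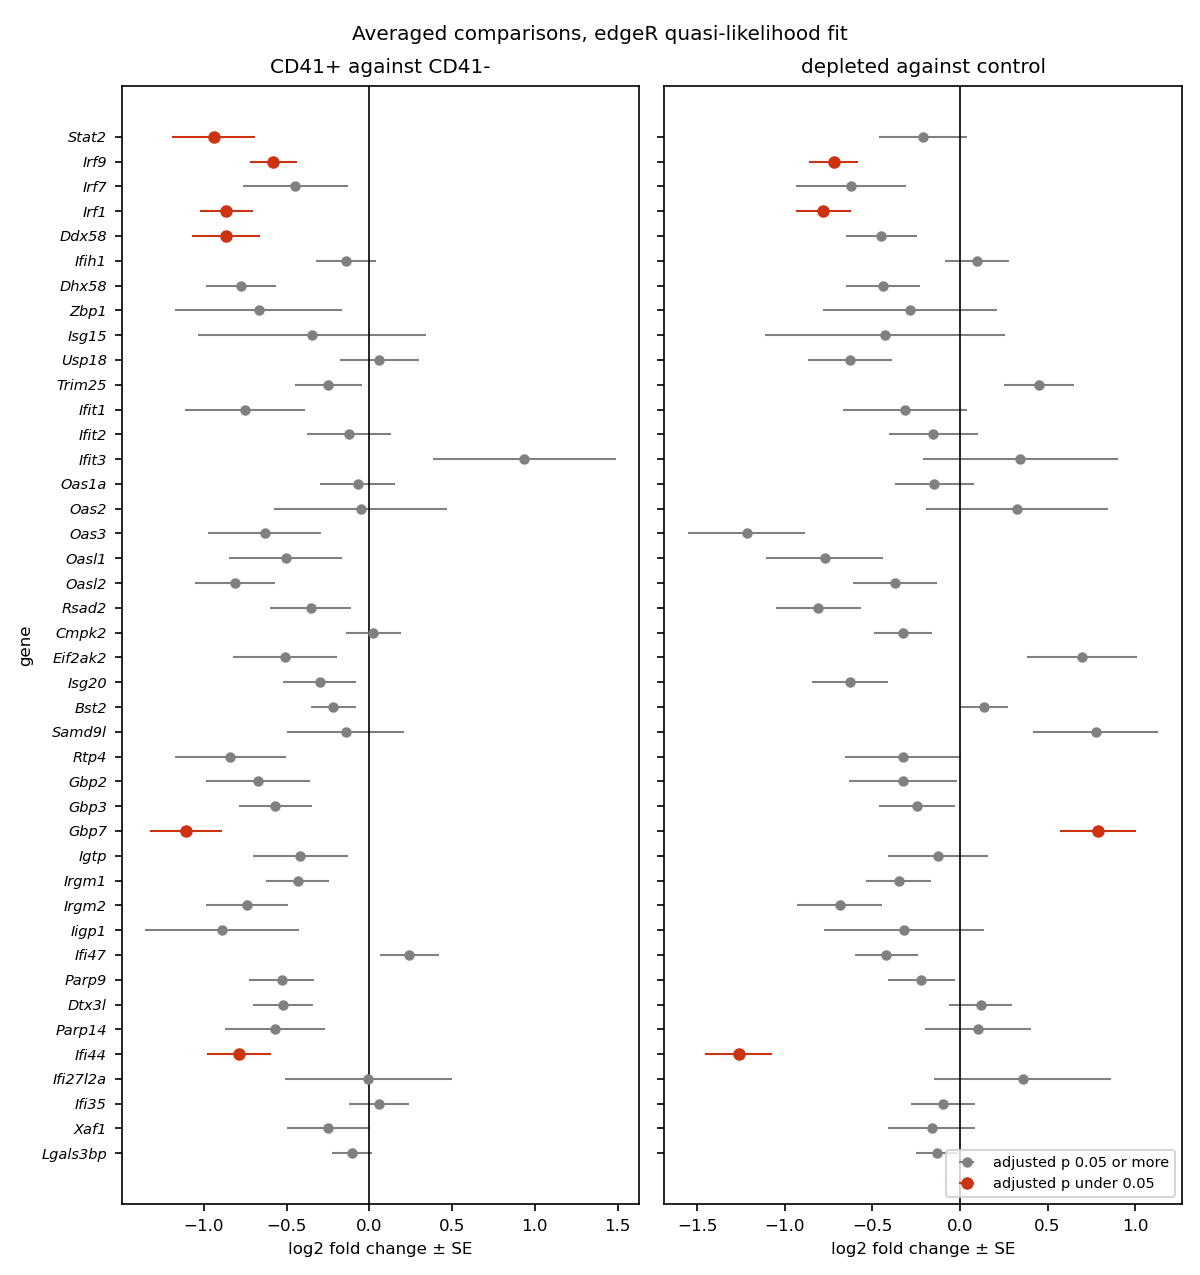
Log2 fold change ± SE of each of 42 members in the edgeR fit, for CD41+ against CD41- cells averaged over treatments (left) and for depleted against control mice averaged over fractions (right), with members of adjusted p under 0.05 in red. On the left 37 of 42 points lie below 0 and 6 are red; on the right 31 lie below 0 and 4 are red, with Gbp7 the red point above 0.

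The rest of the pathway was read from lists of other genes, also chosen with earlier results of these data known. None of 19 interferon genes passed the filter, 16 had no count in any library, and the others held 19 counts in all, among them Ifnb1 with 0.588 CPM in depleted CD41+ replicate 2. Ifng was at 0 in all 11 libraries. All 10 receptor and JAK-STAT genes passed the filter and none was called in any comparison. Ifnar1, a chain of the type I receptor, ran from 34.5 to 130 CPM, and Ifngr1, a chain of the interferon gamma receptor, from 213 to 369 CPM. Transcripts of the type I and gamma receptors were present in every library, and ligand transcripts were at or near 0.

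Of 14 induction adaptors and factors tested, 2 fell in CD41+ cells on average and 2 after depletion, where 2.65% and 2.73% of all genes tested fell. Tmem173, which encodes the DNA-sensing adaptor STING, fell in both, at -1.02 ± 0.16 (edgeR adjusted p = 0.00387) and at -0.63 ± 0.16 (edgeR adjusted p = 0.0323). It stood at 140, 206 and 200.4 CPM in control CD41- cells, 78.0 and 129 CPM in CD41+ cells of control mice, 117, 155 and 138 CPM in depleted CD41- cells, and 54.5, 60.2 and 58.9 CPM in depleted CD41+ cells. The fractions did not overlap in either treatment, and Tmem173 was also called in depleted mice alone, at -1.23 ± 0.22 (edgeR adjusted p = 0.0398). The other calls were Irf2 between fractions (-1.15 ± 0.31, edgeR adjusted p = 0.044) and Irf5 after depletion (-0.62 ± 0.17, edgeR adjusted p = 0.0423).

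Among 8 negative regulators, Trim30a fell in both averaged comparisons, at -0.65 ± 0.15 between fractions (edgeR adjusted p = 0.0218) and at -0.82 ± 0.14 after depletion (edgeR adjusted p = 0.00543). Of 44 further interferon-induced genes tested, 5 fell in CD41+ cells and 0 rose, where 2.65% of all genes tested fell and 2.73% rose. Those 5 included Ifi203 (-0.93 ± 0.16), Ly6a (-1.47 ± 0.26), Gbp8 (-1.14 ± 0.22) and Gbp5 (-1.70 ± 0.35), with edgeR adjusted p of 0.0053, 0.00794, 0.0109 and 0.0141. Ly6a encodes Sca-1 and is itself a marker of the sort. After depletion, where 2.73% of all genes fell and 3.6% rose, 3 of these 44 genes fell and 1 rose. Among those that fell was Gbp8 at -1.04 ± 0.22 (edgeR adjusted p = 0.0146). The gene that rose was Slfn2, a Schlafen family gene linked to immune cell quiescence, at 1.30 ± 0.26 (edgeR adjusted p = 0.0117) and at 1.96 ± 0.34 in CD41- cells alone (edgeR adjusted p = 0.0077). The CD41- libraries held 65.7, 90.3 and 68.1 CPM of Slfn2 in control mice and 260.4, 223 and 390 CPM in depleted mice, without overlap. The CD41+ libraries overlapped, with 93.0 and 233 CPM in control mice and 270, 170 and 328 CPM in depleted mice. Within the guanylate-binding family, Gbp7 and Gbp8 moved in opposite directions after depletion and in the same direction between fractions.

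Transcripts of the stem cell gate and of other cell types moved with the groups, and their part in these results was not tested. For the calls below, 2.65% of all genes tested fell and 2.73% rose in CD41+ cells, and 2.73% fell and 3.6% rose after depletion. The sum over the 10 stem cell gate genes was 1514 to 1786 CPM in control CD41- cells, 1096 to 1438 CPM in CD41+ cells of control mice, 934 to 1234 CPM in depleted CD41- cells and 619.5 to 1112 CPM in depleted CD41+ cells. Of these genes, 4 were called lower in CD41+ cells (Hlf, Procr, Fgd5 and Ly6a) and 2 higher (Slamf1 and Itga2b), while 2 were called lower after depletion (Hlf and Itga2b). Hlf, a transcription factor of stem cells, had -1.42 ± 0.17 between fractions (edgeR adjusted p = 0.000928) and -0.70 ± 0.16 after depletion (edgeR adjusted p = 0.0232). Ly6a, which encodes the Sca-1 protein used in the sort, is itself induced by interferon. The sum over 12 neutrophil genes was 8343 to 14570 CPM in control CD41- cells, 23990 to 83410 CPM in CD41+ cells of control mice, 4137 to 36600 CPM in depleted CD41- cells and 14860 to 52340 CPM in depleted CD41+ cells, with 0 of 12 genes called in either averaged comparison. The sum over 12 endothelial and stromal genes was 134 to 175, 220 to 366, 114 to 420.5 and 343 to 565 CPM in the same order. Its value of 420.5 CPM was that of depleted CD41- replicate 3, the library in which the members stood highest, and 284.5 CPM of it was Cxcl12 alone. In every other CD41- library Cxcl12 stood at no more than 1.83 CPM. In CD41+ cells Cxcl12 stood at 189 and 83.9 CPM in control mice and at 311, 136 and 282 CPM in depleted mice. Of 10 genes tested from the endothelial and stromal list, 4 rose in CD41+ cells (Kitl, Ibsp, Cldn5 and Lepr) and 1 fell (Emcn). The sum over 12 monocyte and macrophage genes was 1437 to 1626, 2239 to 7170, 738.5 to 3128 and 1596 to 4176 CPM, and 1 of 12 (Mrc1) was called higher in CD41+ cells. The sum over 10 erythroid genes was 244 to 1023, 1567 to 1726, 183 to 1362 and 539 to 1305 CPM, so the fractions did not overlap in control mice and overlapped in depleted mice, and 2 of 10 (Aqp1 and Epor) were called higher in CD41+ cells.

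Plasmacytoid dendritic cells, which make type I interferon, were followed by 10 genes, 1 of which, Bst2, is also a member here. Siglech, a defining gene of that cell, stood at 17.8, 18.4 and 20.4 CPM in depleted CD41+ cells and at 0 to 4.97 CPM in the other 8 libraries. Runx2, from the same list, went the other way, at 7.79 to 16.7 CPM in depleted CD41+ cells and at 22.0 to 43.2 CPM in the 6 CD41- libraries. In CD41+ cells of control mice Runx2 stood at 24.85 and 12.64 CPM, the first of which lies in the CD41- range. Siglech and Runx2 were the 2 genes called between fractions among 9 tested, Siglech higher (2.002 ± 0.510, edgeR adjusted p = 0.0362) and Runx2 lower (-0.94 ± 0.25, edgeR adjusted p = 0.0406), and 0 of 9 were called after depletion. Klk1 stood at 12.24, 4.90 and 15.73 CPM in depleted CD41+ cells and at no more than 4.973 CPM elsewhere. Ccr9 stood at 13.35, 5.292 and 16.9 CPM there and at no more than 8.376 CPM elsewhere. For both, depleted CD41+ replicate 2 lay within the range of the other groups. Tcf4 ran from 92.3 to 104 CPM in depleted CD41+ cells, within its range in the other libraries, and Pacsin1 and Cox6a2 stayed under 3.6 CPM in all 11. The sum over the list was 297 to 327 CPM in control CD41- cells, 247 to 254 CPM in CD41+ cells of control mice, 257 to 317 CPM in depleted CD41- cells and 272 to 347 CPM in depleted CD41+ cells. Among T and NK cell genes, Cd3e was at 0 in 9 of 11 libraries and no higher than 1.11 CPM, and the list summed to 107 to 270 CPM. Of 6 genes tested from it, 1 was called, Nkg7, which ran from 57.0 to 217.5 CPM. Nkg7 was higher in CD41+ cells (0.795 ± 0.137, edgeR adjusted p = 0.006) and lower after depletion (-0.581 ± 0.137, edgeR adjusted p = 0.0241). Megakaryocyte genes summed to 1024 to 1624, 1631 to 2251, 594 to 874 and 782 to 1147 CPM in the same order of groups, and 8 of 12 were called higher in CD41+ cells and 7 of 12 lower after depletion.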

How the data were processed

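Per the labels' protocols, cDNA was made from 1000 sorted stem cells per library (a pool of 3 mice) by oligo-dT priming with a template-switching primer, then amplified and tagmented. The deposited values were raw counts per gene, made by the authors with cutadapt, STAR and HTSeq 0.6.1p1 on GRCm38 (mm10), per the submitters' processing notes. For the counting step, strand and annotation release were not given in the sources used here. Overlapping, antisense and near-copy genes are therefore uncertain. Amplification of small RNA inputs can distort low counts.

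Samples were grouped by treatment and CD41 from their titles. The members and gene lists were chosen with earlier results of these data known. Genes kept by filterByExpr (minimum count 10, minimum total 15) numbered 13448 and held 99.7% of counts. They were scaled by TMM and fitted over all 11 libraries with the robust quasi-likelihood model of edgeR 4.0.16 in R 4.3.3, adjusted by Benjamini-Hochberg at 0.05 over all genes. Log2 CPM used a prior count of 2. Library totals ran from 0.974 M to 9.95 M counts. Values in every library are given for members called in any of 7 comparisons, the highest member by CPM of each role, and the 6 with the largest SD of log2 CPM. As alternatives, RLE factors, library totals alone, no filter, no robust estimation, DESeq2 1.42.0, voom with quality weights (limma 3.58.1), the compared groups alone, a replicate block, and the omission of each library were run. The scripts were tested on simulated data. Coordinates and gene symbols came from GENCODE M21 and promoter windows from RefSeq (GRCm38.p6).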

Additional observations from a re-analysis of the deposited data

How the results depend on the processing

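Over all settings the median over members ran from -0.57 to -0.07 between fractions of control mice, from -0.95 to -0.29 between those of depleted mice and from -0.63 to -0.28 on average. For depletion it ran from -0.42 to 0.07 in CD41- cells, from -0.71 to -0.28 in CD41+ cells and from -0.45 to -0.15 on average, and for the difference of the depletion responses from -0.57 to -0.03. Counts of called members moved as well. The cause was not tested, except that leaving out a library also leaves fewer samples. Without the filter, members called lower came to 4 between fractions of control mice, 15 between those of depleted mice and 17 on average, and to 2 after depletion in the CD41- fraction, 5 in the CD41+ fraction and 6 on average. Members called higher without the filter came to 1 between fractions in control mice, 1 after depletion in CD41+ cells and 2 after depletion on average. DESeq2 called 2 lower between fractions in each treatment, 1 higher and 3 lower after depletion in CD41+ cells, and 6 lower after depletion on average. Voom called 0 lower between fractions in control mice, and the fit without robust estimation called 0 higher after depletion on average. The share of all genes called in the alternative fits is not given here. Their counts therefore do not set the members apart from other genes.

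Leaving out 1 library gave 0 to 1 members lower between fractions in control mice and 1 to 6 on average. After depletion it gave 0 to 2 lower in the CD41- fraction, 0 to 1 in the CD41+ fraction and 2 to 5 on average, with 0 to 1 higher on average. A replicate block of consecutive title numbers, which the labels do not describe as a pairing, called 2 members lower between fractions of control mice, 7 between those of depleted mice and 15 when averaged. The share of all genes called with this block is not given here either. With it the edgeR adjusted p was 0.0326 for Irf1 between fractions of depleted mice, and 0.0286 for Dhx58 and 0.00297 for Oasl2 on average. In 3 of 5 such pairs the deviations from group means correlated above 0.1 over all genes (r from 0.0801 to 0.343 over the 5). Each paired CD41- library correlated best with the next number. In control mice this cannot speak for a pairing, since the deviations of the 2 CD41+ libraries mirror each other. There r was 0.0801 against -0.0801 and 0.0977 against -0.0977. Deviations within a depleted group also sum to 0, so those correlations depend on each other. Depletion contrasts could not be fitted with that block. No called result reversed, while the median for depletion in CD41- cells, near 0, changed sign in 3 fits that left out 1 library. Depth limits the scarce members, since 3 counts equal 3.08 CPM in the shallowest library.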

Other observations

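In median log2 deviation of the 42 members tested, CD41- and CD41+ libraries stood at 0.16 and -0.22 for titles 1 and 2, at 0.63 and 0.30 for titles 3 and 4, at -0.08 and -0.87 for titles 7 and 8, at -0.04 and -0.55 for titles 9 and 10, and at 0.66 and -0.00126 for titles 11 and 12. In all 5 the CD41+ library was the lower one. The labels do not say whether such libraries came from the same mice, so these are values of single libraries and no test was made on them.

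Summed over the 44 members, the CPM ran from 2358 (depleted CD41+ replicate 1) to 5799 (control CD41- replicate 2). In depleted CD41+ cells the median log2 deviation in the 3 libraries was -1.32, -0.69 and -0.03 over the OAS family and -0.84, -1.63 and 0.16 over the IFIT family. Over PARP9, DTX3L and PARP14 it was -0.69, 0.09 and -0.43.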
